A study of Homo sapiens with 6 samples.

Results

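The interleukin-1 (IL-1) family cytokines and the proteins that carry their signal were represented by 10 genes, namely IL1A, IL1B, IL1RN, IL1R1, IL1RAP, IL18, IL33, IRAK1, IRAK2 and MYD88. Members were all probe sets that the platform annotation pairs with exactly 1 gene symbol, where that symbol is 1 of these 10. This gave 22 of the 49395 probe sets on the array, and all 10 genes were measured, of 18132 genes in all. RNA came from the human cell line BCPAP, which was established from a papillary thyroid carcinoma. Cells of the shCSF2 group (3 arrays) had been transduced with a lentivirus carrying a short hairpin RNA against CSF2, which encodes the cytokine GM-CSF. Cells of the shCtrl group (3 arrays) had received the same kind of vector with a non-targeting hairpin, and both groups went through puromycin selection, begun after 48 hours and kept up for 7 days. The labels name the samples biological replicates, but the sources used here do not say whether each came from its own transduction, nor how many hairpins were used, so p-values measure the spread between these cultures.

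IL-1 family cytokines are alarm signals. IL-1 alpha (IL1A) and IL-1 beta (IL1B) bind the same receptor chain, IL1R1, which then recruits the accessory chain encoded by IL1RAP. The receptor's intracellular domains bind the adaptor MYD88, which assembles the kinases IRAK4, IRAK1 and IRAK2, and these pass the signal through TRAF6 to NF-kB and MAP kinases. IL1RN encodes the receptor antagonist, which occupies IL1R1 without signalling. IL-18 and IL-33 use receptors of the same family and also signal through MYD88. IL-1 beta and IL-18 are made as precursors that caspase-1 cleaves, so their transcripts do not show how much active cytokine was released.

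Each probe set has 1 log2 expression value per array, and array medians lay between 5.77 and 5.79. Precision is limited by there being 3 arrays in each group. No probe set was paired with CSF2, so the knockdown itself was not analysed here. Of 11 measured thyroid and epithelial markers, the thyroid factors PAX8 (8.07 in shCSF2, 8.11 in shCtrl cells), NKX2-1 (9.37 and 9.78) and FOXE1 (6.15 and 6.03) and the keratins KRT7, KRT8 and KRT18 stood above the array medians. When each gene is taken by its brightest probe set, as here, the medians over genes were 6.26 to 6.30, and FOXE1 lay below those. Thyroglobulin (TG, 4.58 and 4.61), the TSH receptor (TSHR, 3.88 and 3.86), the epithelial genes CDH1 (3.62 and 3.52) and EPCAM (5.64 and 5.73) and the keratin KRT19 (4.13 and 4.04) lay below the array medians. Of these 11, NKX2-1 (-0.42 ± 0.04) and KRT8 (-0.26 ± 0.05) fell and 0 rose. PTPRC, which defines leukocytes, averaged 2.33 in shCSF2 and 2.35 in shCtrl cells, and 0 of 9 leukocyte markers passed limma's test (0 at an unadjusted p under 0.05), although CD68 and TYROBP stood above the array medians. Summed on the linear scale, those 9 markers ranged from 331 to 354 in shCSF2 and from 349 to 372 in shCtrl cells. Of 5 endothelial markers 1 fell (20%), TEK, dim at 3.19 in shCSF2 and 3.44 in shCtrl cells. CDH5 (6.52 in shCSF2 and 6.59 in shCtrl cells) and PECAM1 (6.22 and 6.26) stood above the array medians and did not pass. Of 6 fibroblast markers, all below the array medians, 1 fell (16.7%), COL1A2 (4.62 and 4.83). The share over all genes was 32.7%. Endothelial sums were 219 to 236 in shCSF2 and 235 to 256 in shCtrl cells. Fibroblast sums were 131 to 135 and 138 to 148. The part of background signal in the endothelial and fibroblast sums was not tested. The control probe sets at the 3′ and 5′ ends of GAPDH differed by -0.02 to 0.00 on the log2 scale in shCSF2 and by -0.05 to -0.03 in shCtrl cells. Those of actin differed more, by 0.57 to 0.66 in shCSF2 and by 0.54 to 0.63 in shCtrl cells, and here the groups overlapped. The part of these differences in the results was not tested. The RNA came from whole cultures, so fewer cells that express a gene and less of its RNA per cell cannot be told apart.

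Of the 10 genes, 5 rose and 2 fell in shCSF2 cells and 3 did not pass limma's test at an adjusted p of 0.05. That threshold was passed by 32.7% of all genes (16.7% higher and 16.0% lower). This share covers bright and dim genes and was not matched for level. With only genes at or above the median level tested, 3097 rose and 2701 fell, beside 3037 and 2893 of all 18132. The brighter genes alone thus gave nearly as many calls from fewer genes tested, so a larger share of them passed than 32.7%. In that fit 5 members rose and 1 fell, and 32.7% is too low a share to set beside the brighter members. IRAK2, IL1B and MYD88 rose most, by 1.81-fold, 1.64-fold and 1.59-fold. IL1RAP rose 1.38-fold by its brightest probe set and IL1A rose 1.12-fold. IRAK1 fell 1.32-fold and IL1RN fell 1.10-fold. IL1R1, IL18 and IL33 did not pass. The same 7 genes that passed had 3 shCSF2 arrays entirely above or below the 3 shCtrl arrays, as had 46.7% of all genes (22.1% above and 24.6% below). The members' median log2 fold change was 0.11, beside -0.03 over all genes.

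Promoters of IL1B, IRAK2, MYD88 and IRAK1, which changed clearly by their brightest probe sets, and of IL1A as the partner of IL1B, are shown so that their sequences can be set beside the values. Of the 10 genes, 9 matched a promoter from RefSeq (GRCh38.p14), all but IL18. The 250 bases before each start site are printed 5′ to 3′ in lower case, with any match to 1 of 3 searched motifs in capitals. The IL1B window lies at chr2:112836780-112837029 (minus strand), that of IL1A at chr2:112784494-112784743 (minus strand), that of IRAK2 at chr3:10164669-10164918 (plus strand), that of MYD88 at chr3:38138411-38138660 (plus strand) and that of IRAK1 at chrX:154019903-154020152 (minus strand).
IL1B: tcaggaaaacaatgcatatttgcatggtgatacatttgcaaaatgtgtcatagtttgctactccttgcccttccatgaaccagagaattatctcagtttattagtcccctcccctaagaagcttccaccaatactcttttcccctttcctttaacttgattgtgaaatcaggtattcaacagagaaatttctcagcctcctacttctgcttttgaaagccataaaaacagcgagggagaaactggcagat
IL1A: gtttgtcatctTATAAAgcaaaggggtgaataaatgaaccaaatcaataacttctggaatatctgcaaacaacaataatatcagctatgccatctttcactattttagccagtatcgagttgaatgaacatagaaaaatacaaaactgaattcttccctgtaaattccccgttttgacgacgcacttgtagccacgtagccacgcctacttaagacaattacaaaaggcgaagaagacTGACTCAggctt
IRAK2: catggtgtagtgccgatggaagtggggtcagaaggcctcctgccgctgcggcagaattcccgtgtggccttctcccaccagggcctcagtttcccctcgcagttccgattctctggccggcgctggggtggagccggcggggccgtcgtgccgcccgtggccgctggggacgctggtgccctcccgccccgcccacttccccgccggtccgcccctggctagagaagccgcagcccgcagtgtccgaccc
MYD88: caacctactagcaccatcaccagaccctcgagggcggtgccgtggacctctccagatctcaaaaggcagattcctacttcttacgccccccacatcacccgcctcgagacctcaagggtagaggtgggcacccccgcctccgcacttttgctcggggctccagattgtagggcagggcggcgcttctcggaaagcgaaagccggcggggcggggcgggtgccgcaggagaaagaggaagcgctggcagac
IRAK1: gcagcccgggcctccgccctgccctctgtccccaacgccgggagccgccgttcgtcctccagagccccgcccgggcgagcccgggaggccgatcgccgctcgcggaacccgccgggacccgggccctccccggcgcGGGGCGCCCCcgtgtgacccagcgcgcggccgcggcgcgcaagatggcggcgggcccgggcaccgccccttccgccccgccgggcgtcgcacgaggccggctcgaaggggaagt
The motifs were the AP-1 element TGANTCA, the TATA box TATAAA and the kappaB consensus bound by NF-kB, each on both strands. Because the AP-1 element and the IRAK1 match read the same on both strands, each was counted once. IL1A held an AP-1 element whose first base lies 12 bases before the start site, and letters of a TATA box 239 bases before it. IRAK1, which fell, held the only kappaB match among the 9 promoters, 114 bases before its start site. IL1RN, which also fell and whose promoter is not printed, held an AP-1 element 223 bases before its start. The windows of IL1B, IRAK2 and MYD88, which rose, and of IL1RAP, IL1R1 and IL33 held none of the 3 motifs. Over all 27305 promoters with a window of this length, 9.57% held the kappaB consensus, 6.60% the AP-1 element and 11.1% the TATA box. A match describes letters in the sequence and not binding, and the lack of one says only that these letters are not in these 250 bases.

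Among the ligands, IL1B changed most. IL1B read 11.09, 11.08 and 11.08 on the 3 shCSF2 arrays, against 10.38, 10.33 and 10.40 on the 3 shCtrl arrays. The groups were far apart and the shCSF2 arrays nearly identical to each other. The log2 fold change was 0.72 ± 0.03 (SE, n = 3 arrays per group, limma adjusted p = 3.53e-05), and 98.8% of all genes had a smaller absolute change. IL1B was measured by 1 probe set.

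IL1A, the other agonist of the receptor, which cells can release as a precursor when they die, read 10.92, 10.90 and 10.93 in shCSF2 and 10.74, 10.75 and 10.77 in shCtrl cells. The groups did not overlap, but the gap was small beside that of IL1B. Its log2 fold change was 0.16 ± 0.03 (limma adjusted p = 0.00814). Within arrays, the log2 change of IL1B exceeded that of IL1A by 0.56 ± 0.02 (SE, n = 3 per group). An exact two-sided permutation test of this difference gave p = 0.1, the smallest p that 3 arrays against 3 allow, as it did for each of the 3 such differences tested here (Benjamini-Hochberg adjusted p = 0.1).

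IL18, which drives interferon gamma production in lymphocytes, read 8.56, 8.50 and 8.27 in shCSF2 and 8.51, 8.75 and 8.30 in shCtrl cells. The groups overlapped throughout, and the arrays of each group were widely spread. The log2 fold change of -0.07 had a 95% interval from -0.37 to 0.22 and did not pass (limma adjusted p = 0.689). With 3 arrays per group, a change of IL18 inside that interval is not excluded. IL33, a nuclear alarmin of barrier cells, was dim in both groups, at 2.93, 2.97 and 2.99 in shCSF2 and 2.81, 2.87 and 3.04 in shCtrl cells. All 3 of its probe sets lay below the arrays' lower quartiles of 4.15 to 4.20, and none passed. IL1RN, the antagonist, was also below the array medians. IL1RN read 4.85, 4.85 and 4.83 in shCSF2 and 4.96, 4.94 and 5.03 in shCtrl cells, without overlap (log2 fold change -0.13 ± 0.04, limma adjusted p = 0.0315). This call was the least stable of the 7: with 1 array left out it was lost in 5 of 6 fits (all but the fit without shCtrl replicate 2) and in 11 of 14 alternatives in all, and the other probe set of IL1RN did not pass (log2 fold change 0.00 ± 0.05). Without 1 array its values ranged from -0.15 to -0.11, and with both probe sets averaged it was -0.07.

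**Figure D1:**
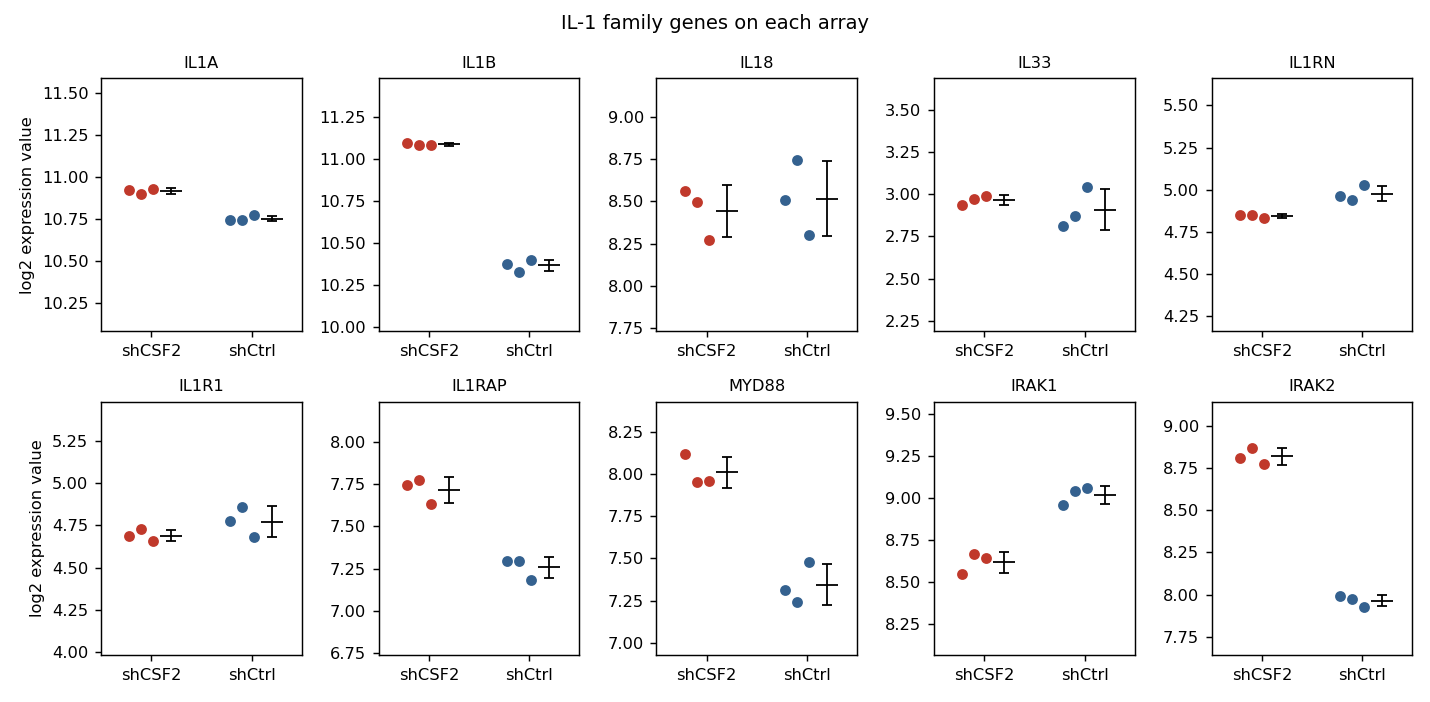
Log2 expression values of the 10 genes on each array, by the brightest probe set of each, with shCSF2 arrays (red) left of shCtrl arrays (blue); the dash and bar beside each group are the mean ± SD (n = 3). Every panel spans the same height on the log2 scale, so the gap between groups can be compared across genes: it is widest for IRAK2 (0.86), IL1B (0.72) and MYD88 (0.67).

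At the receptor, the signalling chain IL1R1 was dim. IL1R1 read 4.68, 4.73 and 4.66 in shCSF2 and 4.77, 4.86 and 4.68 in shCtrl cells, below the array medians. The groups overlapped, and the log2 fold change of -0.08 had a 95% interval from -0.21 to 0.04 (limma adjusted p = 0.278). Its other probe set was dimmer still, at 3.42 in shCSF2 and 3.34 in shCtrl cells, and did not pass.

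IL1RAP, the accessory chain shared by the receptors of IL-1, IL-33 and IL-36, gave different results by probe set. By the brightest probe set, whose listed transcript encodes the membrane form, IL1RAP read 7.75, 7.78 and 7.63 in shCSF2 and 7.29, 7.29 and 7.18 in shCtrl cells. The shCSF2 arrays were all higher (log2 fold change 0.46 ± 0.05, limma adjusted p = 0.000797). The second probe set, whose listed transcript encodes the shorter soluble form, read 6.56, 6.45 and 6.45 in shCSF2 and 6.73, 6.72 and 6.59 in shCtrl cells. Here the shCSF2 arrays were all lower (log2 fold change -0.19 ± 0.06, limma adjusted p = 0.0394 over all probe sets), but this call was lost without shCSF2 replicate 2 (-0.18) or 3 (-0.18) or shCtrl replicate 1 (-0.17) or 2 (-0.17). Probe sequences were not used here to check which form each probe set reads. The soluble form lacks the membrane anchor and is known as a decoy that holds IL-1 together with the decoy receptor IL1R2. The gap between both probe sets was 1.18 to 1.33 in shCSF2 and 0.56 to 0.60 in shCtrl arrays, a difference of 0.66 ± 0.05 (SE, exact two-sided permutation p = 0.1, the smallest possible). The remaining 2 probe sets did not pass (0.06 and 0.04), and with all 4 averaged the gene was no longer called (0.09, limma adjusted p = 0.195).

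**Figure D2:**
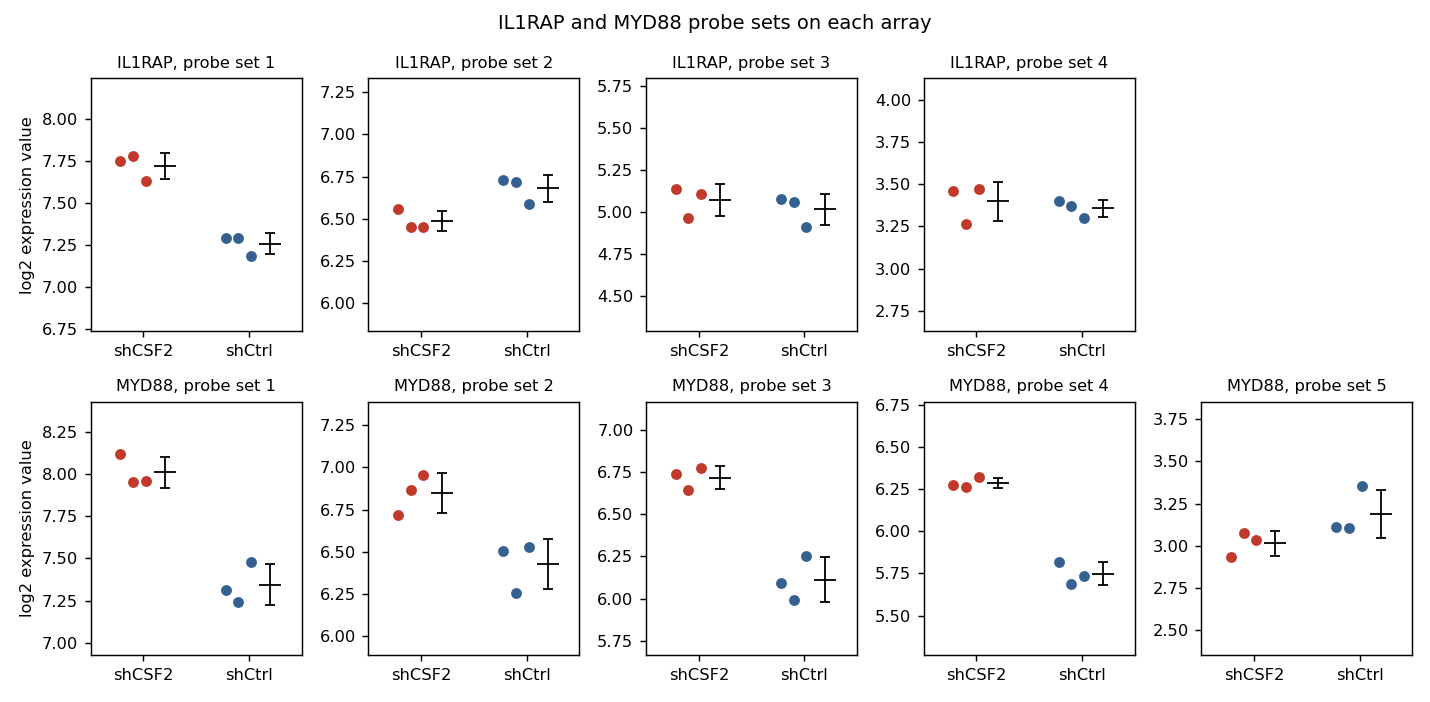
Log2 expression values on each array for the 4 probe sets of IL1RAP (upper row) and the 5 of MYD88 (lower row), numbered from brightest to dimmest, with shCSF2 arrays (red) left of shCtrl arrays (blue) and mean ± SD (n = 3) beside them. Probe set 1 of IL1RAP is higher and probe set 2 lower in shCSF2 cells, whereas MYD88 is higher by its probe sets 1 to 4 and dim by the fifth.

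MYD88, the adaptor that joins these receptors to the IRAK kinases, rose by 4 of its 5 probe sets. The brightest read 8.12, 7.95 and 7.96 in shCSF2 and 7.31, 7.24 and 7.48 in shCtrl cells. The groups were well separated, although the arrays within each group were more spread than for IL1B (log2 fold change 0.67 ± 0.07, limma adjusted p = 0.000654). The next 3 probe sets had log2 fold changes of 0.42, 0.61 and 0.54. The fifth, dim at 3.01 in shCSF2 and 3.19 in shCtrl cells, did not pass (-0.18 ± 0.08), and with all 5 averaged the log2 fold change was 0.41.

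IRAK2, a kinase-like protein that sustains the signal at later stages, had the largest change of the 10 genes. IRAK2 read 8.81, 8.87 and 8.78 in shCSF2 and 7.99, 7.97 and 7.93 in shCtrl cells. Each shCSF2 array was far above every shCtrl array (log2 fold change 0.86 ± 0.04, limma adjusted p = 3.51e-05), and 99.4% of all genes had a smaller absolute change. Its second probe set rose less, by 0.21 ± 0.06, with 7.12, 7.33 and 7.11 in shCSF2 and 6.97, 6.98 and 6.99 in shCtrl cells. That smaller change passed narrowly (limma adjusted p = 0.0476) and without 1 array kept its call only when shCSF2 replicate 3 was left out, with values of 0.14 (without shCSF2 replicate 2) to 0.25. It was also lost under 3 other normalizations, with values of 0.18 to 0.21. With both averaged the log2 fold change was 0.53.

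IRAK1, the kinase that acts early and is degraded once activated, moved the other way. IRAK1 read 8.55, 8.67 and 8.64 in shCSF2 and 8.96, 9.04 and 9.06 in shCtrl cells. The shCSF2 arrays were all lower (log2 fold change -0.40 ± 0.05, limma adjusted p = 0.000914). Within arrays, the log2 change of IRAK2 by its brightest probe set exceeded that of IRAK1 by 1.26 ± 0.06 (SE, exact two-sided permutation p = 0.1, the smallest possible). The second IRAK2 probe set, with its smaller change of 0.21, was not compared with IRAK1 in this way. IRAK1 was measured by 1 probe set.

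Over the 22 probe sets, 9 were higher and 3 lower in shCSF2 cells (54.5%). Of all 49293 probe sets that were not controls, 29.1% passed (15.3% higher and 13.8% lower), a share not matched for level. Probe sets of 1 gene come from the same arrays and can read overlapping transcripts, so they are not separate observations. Of the 22, 10 had a mean below the median of the arrays, and these include all probe sets of IL33, IL1R1 and IL1RN.

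**Figure D3:**
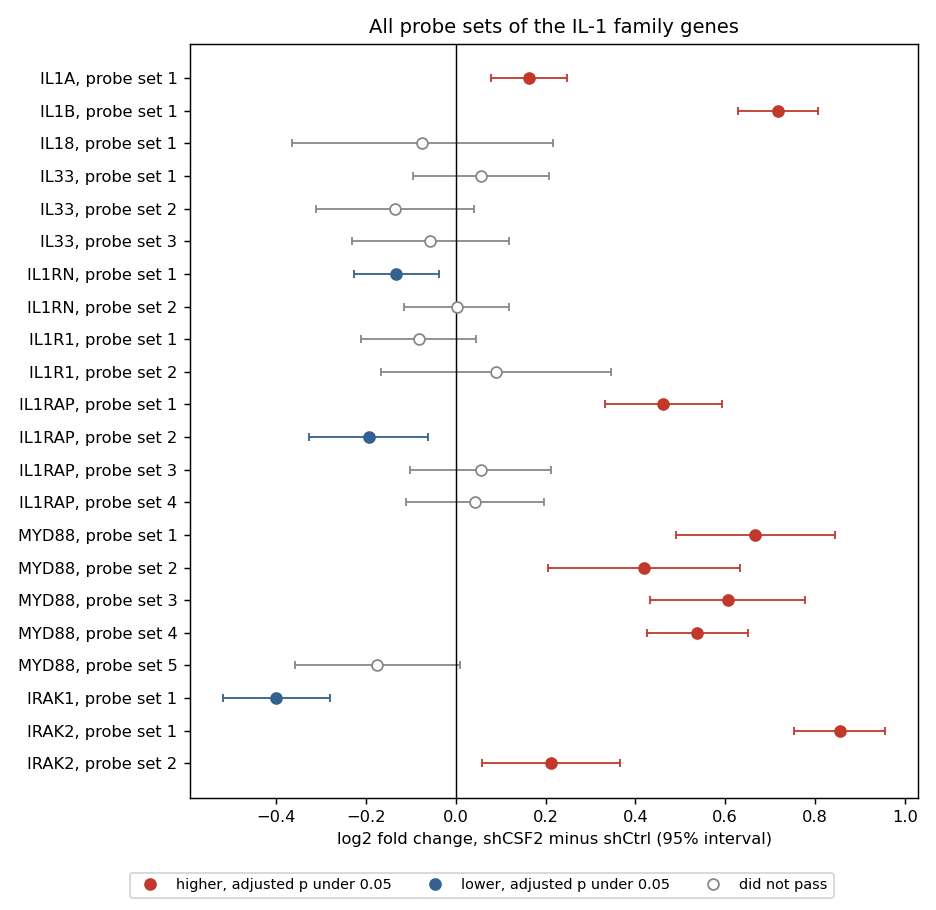
Log2 fold change (shCSF2 minus shCtrl) with its 95% interval for all 22 probe sets, grouped by gene and ordered from brightest to dimmest within a gene. Filled points passed an adjusted p of 0.05 over all probe sets, 9 higher (red) and 3 lower (blue); open points did not pass.

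The 5 genes whose profile was closest to that of IRAK2 were chosen by the root mean square difference of log2 values over the 6 arrays, after centring each gene on its shCtrl mean, among genes with a mean of at least 6 in the higher group. NXPE3 was closest (0.022), followed by the deubiquitinase gene OTUD4 (0.029), the interferon-induced gene IFIT2 (0.033), the cell polarity gene PALS1 (0.036) and G0S2, an inhibitor of lipolysis (0.036). All 5 rose by 0.84 to 0.89 on the log2 scale, and the measure favours genes whose change is of the same size. With all probe sets averaged, NXPE3 was 0.40 and OTUD4 0.49.

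Other genes of the pathway were grouped by role. Of 8 other receptors of the family, 2 rose and 0 fell (25%, beside 32.7% of all genes). IL1RL1, the IL-33 receptor also called ST2, read 8.05, 8.18 and 8.05 in shCSF2 and 6.88, 7.00 and 6.85 in shCtrl cells. This rise of 2.27-fold (log2 fold change 1.18 ± 0.06, limma adjusted p = 3.51e-05) was larger than that of any of the 10 members, and 4 of the gene's 5 probe sets rose, 2 of them with identical values. IL18R1, the IL-18 receptor chain, rose by 0.26 ± 0.06, a call lost without shCtrl replicate 2 (0.24, limma adjusted p = 0.0502) and by its most variable probe set (0.22). The decoy receptor gene IL1R2 was dim, at 4.01 in shCSF2 and 4.09 in shCtrl cells, and is named after its values were seen. Of 7 other ligands and antagonists, 0 passed limma's test, beside 32.7% of all genes, and 1 had an unadjusted p under 0.05. All 7 averaged below the array medians, and the share of all genes was not matched for level. The brightest, the IL-18 binding protein gene IL18BP, averaged 5.32 in shCSF2 and 5.45 in shCtrl cells. IL37, a family member known as anti-inflammatory, averaged 4.50 and 4.65.

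Of 18 measured signalling proteins below the receptor, 4 rose and 2 fell (33.3%), a share close to the 32.7% of all genes. TAB3, an adaptor of the kinase TAK1 (0.39 ± 0.04), TOLLIP, an inhibitor that binds IRAK1 (0.27 ± 0.04), and the ubiquitin ligase gene TRAF6 (0.25 ± 0.04) rose. PELI2, a ubiquitin ligase of IRAK proteins, fell by 0.24 on the log2 scale, a call lost without shCSF2 replicate 1 (-0.19), shCtrl replicate 1 (-0.19) or shCtrl replicate 3 (-0.24). With its 2 probe sets averaged the value was -0.15. The list's median log2 fold change was -0.02.

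Of 13 genes that sense danger or process these cytokines, 3 rose and 1 fell (30.8%), near the 32.7% of all genes, and the list's median log2 fold change was 0.00. CAPN2, a subunit of the calpain protease that cleaves the IL-1 alpha precursor, read 11.85, 11.84 and 11.81 in shCSF2 and 11.26, 11.29 and 11.29 in shCtrl cells. All 5 of its probe sets rose (0.55 ± 0.03 by the brightest, limma adjusted p = 6.83e-05). The inflammasome sensor genes AIM2 (0.48 ± 0.07, dim at 5.18 in shCSF2 and 4.70 in shCtrl cells) and NLRP3 (0.32 ± 0.05) rose as well. CASP1, the protease that cleaves the precursors of IL-1 beta and IL-18, fell: it read 8.70, 8.72 and 8.66 in shCSF2 and 8.97, 9.03 and 9.03 in shCtrl cells (log2 fold change -0.32 ± 0.04, limma adjusted p = 0.000821). Of its 9 probe sets, 7 fell and 2 did not pass. By the most variable one, dim at 4.80 in shCSF2 and 5.56 in shCtrl cells, the log2 fold change was -0.76. The others that fell had log2 fold changes of -0.47 to -0.24.

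Of 20 measured genes that IL-1 is known to induce in other cells, 11 rose and 3 fell (70.0%). Over all genes the share was 32.7% (16.7% higher and 16.0% lower), which was not matched for level. With only genes at or above the median level tested, 14 genes of this list passed, and 3097 genes rose and 2701 fell in all. Fewer genes were tested in that fit, so the share of all tested genes that passed was above 32.7%. Most genes of this list lie above the median level, so 70.0% beside 32.7% overstates the contrast. The list's median log2 fold change was 0.23, beside -0.03 over all genes. The chemokine genes CXCL3 (1.03 ± 0.04) and CXCL2 (0.78 ± 0.04), the transcription factor gene IRF1 (0.84 ± 0.05, or 0.55 over its 4 probe sets) and the cytokine gene LIF (0.67 ± 0.05) rose most. CXCL8, the gene of interleukin-8, rose by 0.58 ± 0.04 and the cytokine gene IL6 by 0.50 ± 0.04, both named after their values were seen. The prostaglandin synthase gene PTGS2 (-0.41 ± 0.04), the chemokine gene CCL20 (-0.36 ± 0.04) and NFKBIZ, a nuclear regulator of NF-kB (-0.11 ± 0.03), fell, also named after their values were seen. These genes respond to many signals besides IL-1, and the part of IL-1 in their values was not tested.

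**Figure D4:**
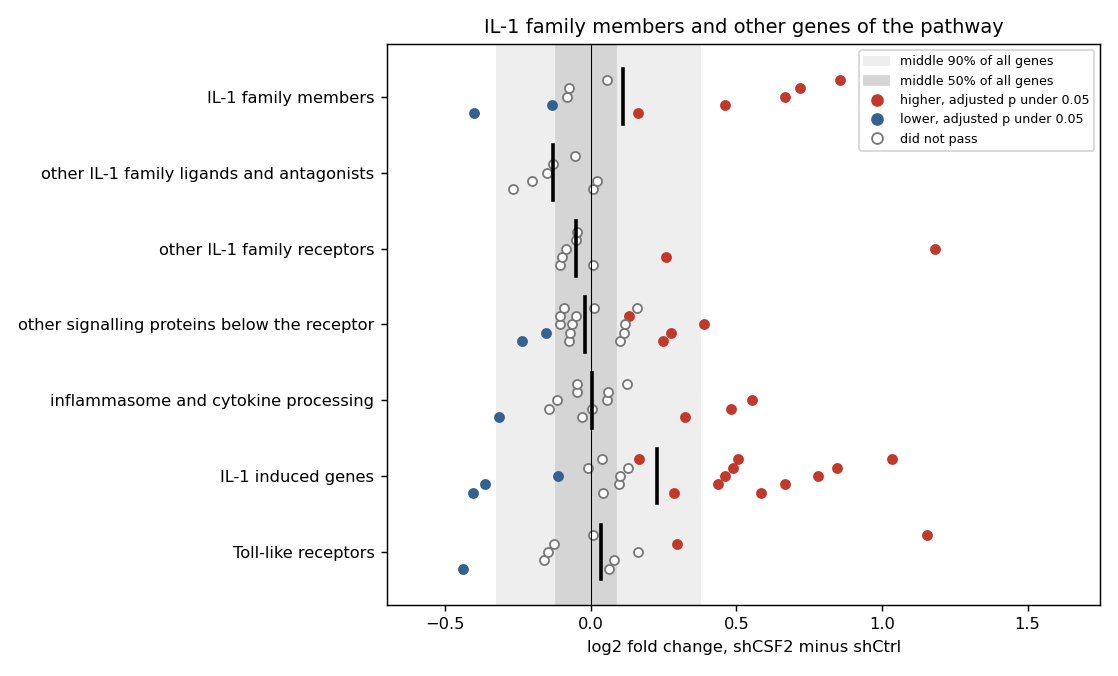
Log2 fold change (shCSF2 minus shCtrl) of every measured gene in the 10 members and the 6 other lists; red and blue points passed an adjusted p of 0.05, open points did not, and the black bar is the list's median. Grey bands hold the middle 50% (-0.12 to 0.09) and 90% (-0.32 to 0.38) of all genes.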

How the data were processed

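The authors deposited log2 expression summaries from Affymetrix PrimeView arrays, made from 200 ng of total RNA per the labels' protocols. RMA, oligo and limma are named in the submitters' processing notes with neither version nor role. RMA compresses differences at low signal. Of 49395 probe sets, 102 were controls, 44988 had 1 gene symbol, 1832 had several and 2473 had none listed. The brightest probe set over the 6 arrays represented each of 18132 genes. Groups were compared in R 4.3.3 with limma 3.58.1 (lmFit, eBayes) and Benjamini-Hochberg adjustment over all genes (or all 49293 probe sets that were not controls) at a threshold of 0.05. Each log2 fold change is shCSF2 minus shCtrl, with its moderated standard error. In simulated data of 18132 genes, 50 genes were changed at each of 0.3, 0.5, 1 and -1 (log2). The fit found 50% of changes of 0.3, 82% of 0.5 and 100% of 1 and of -1, and 5 of 171 calls were false. Far more genes, 5930, were called in the real comparison, so these rates do not carry over to it. The members and lists were chosen with earlier results of these data known. Named genes were the 10 members, the 4 passing genes with the largest change in each other list (or the 2 brightest where none passed), and the 5 genes closest to IRAK2. Marker genes and genes of the 2 chromosomal runs are named for their type or position; other genes are described as named after their values were seen. Listed genes that no single-gene probe set measures are not analysed here. Promoters came from RefSeq, GRCh38.p14. Alternatives were filters on dim genes, 3 further normalizations, other variance models, other choices of probe set, a replicate block and leaving out each array. Figures were drawn with matplotlib 3.10.9.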

Additional observations from a re-analysis of the deposited data

How the results depend on the processing

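The directions and calls of IL1A, IL1B, IRAK1, IRAK2 and MYD88 held in all 16 alternatives, with log2 fold changes of 0.16 to 0.17, 0.70 to 0.73, -0.43 to -0.36, 0.53 to 0.88 and 0.41 to 0.73. IL1RAP kept its call in 15 of 16, the exception being the mean of all probe sets. The number of members that rose was 5 in each fit that left out 1 array; the number that fell was 1 to 2, and was 1 under both filters, a second quantile normalization, cyclic loess, the intensity trend, the mean of all probe sets, the most variable probe set and the replicate block, because IL1RN was lost or not tested. Probe sets of the members that fell numbered 1 to 3 and those that rose 7 to 9 when 1 array was left out; the count that fell was 1 without shCSF2 replicate 2 or 3 or without shCtrl replicate 1 or 2. Over all genes, 2552 to 2738 rose and 2267 to 2529 fell without 1 array, and 2798 rose and 2671 fell with the replicate number as a block (replicate block), which among the 10 genes ended the call of IL1RN (adjusted p = 0.0664), and also that of the second IRAK2 probe set (0.0672) and of PELI2 (0.0721). The second IRAK2 probe set was not called either after quantile normalization (0.0732), median centring (0.0541) or cyclic loess (0.0665). Deviations from the group means of same-numbered arrays correlated with r = 0.025, 0.053 and 0.033 across genes. Of the 6 arrays, 4 correlated best with their own number. These values do not settle whether the numbers mark pairs, and the labels do not say. The main fit left the numbers out, and the replicate block gives the results with them. Signalling genes called numbered 3 (without shCSF2 replicate 1) to 6 without 1 array and 10 among genes with a mean of at least 5; receptors 1 (without shCtrl replicate 2) to 2, and 1 by the most variable probe set; ligands 0 without any 1 array and 1 with that filter; cytokine processing genes 4, and 7 by the mean of all or the most variable probe set; IL-1 induced genes 12 to 13; Toll-like receptors 3 to 5 (5 without shCSF2 replicate 1), and 1 above the median level. Under the filters, fewer genes were tested. The causes of the other shifts were not tested.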

Other observations

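Toll-like receptors share the MYD88 adaptor with the IL-1 receptor family, and 3 of the 10 measured passed the test, a share (30%) near the 32.7% of all genes. TLR2, which binds bacterial lipoproteins, fell: it read 6.82, 6.81 and 6.86 in shCSF2 and 7.23, 7.23 and 7.34 in shCtrl cells (log2 fold change -0.44 ± 0.04, limma adjusted p = 0.000383, or -0.25 with its 3 probe sets averaged). TLR4, the receptor of bacterial endotoxin, rose 2.22-fold by its brightest probe set, at 6.03 in shCSF2 and 4.88 in shCtrl cells. In shCtrl cells that probe set was the dimmest, as the others averaged 5.37 and 5.25, so it ranked brightest through its shCSF2 values. However, 1 of the gene's 3 probe sets fell (-0.30) and 1 did not pass. With all 3 averaged the value was 0.31, so the direction of TLR4 is uncertain. TLR3, a sensor of double-stranded RNA, rose by 0.30 ± 0.05 but was dim, averaging 3.56 in shCSF2 and 3.27 in shCtrl cells.

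Many ligand and receptor genes of the family form 2 runs on chromosome 2, by the gene order of GRCh38.p14. In the run of 9 neighbouring ligand genes, from IL1A to IL1RN, 3 passed, a share near the 32.7% of all genes. IL1A and IL1B, side by side at one end, rose, and IL1RN at the other fell, a call lost in 11 of 14 alternatives. The 6 genes between them, IL37, IL36G, IL36A, IL36B, IL36RN and IL1F10, did not pass and averaged between 2.58 and 4.65 in both groups. In the run of 6 receptor genes, 2 passed, again near that share: the neighbours IL1RL1 and IL18R1 rose, and IL1R2, IL1R1, IL1RL2 and IL18RAP, which lie on either side of them, did not pass. Genes of both runs are named for their position.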
